A study of Mus musculus with 119 samples.

Results

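The genes described here are 3 members of the GADD45 family (*Gadd45a*, *Gadd45b*, and *Gadd45g*) and 2 Polo-like kinase genes (*Plk2* and *Plk3*), chosen by name as stress-response genes. All 5 have a row among the 18098 genes of the expression table, and all 5 passed the filter on low values. They were measured by RNA-seq in mouse bone marrow–derived macrophages (BMDMs), obtained by culture of femoral marrow in L-cell conditioned medium, a source of macrophage growth factor.

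All mice were of the strain C57BL/6(NIMR), and no source used here states their age. Cells were left unstimulated or given LPS, a bacterial ligand of the receptor TLR4, at 100 ng/ml. WT cells are represented by 6 libraries at rest, 6 after 0.5 h, 6 after 1 h, and 4 after 2 h of LPS (replicates 4 to 9, and 4 to 7 at 2 h). *Map3k8*[D270A] cells, which carry TPL-2 without kinase activity, gave 6 libraries at each of these 4 times. *Elk1*-/-*Elk4*-/- cells, which lack a pair of ternary complex factors, gave 4 at each time. *Nfkb1*[SS/AA] cells, in which p105 lacks the serines that signal its proteolysis, gave 6 each without LPS and at 0.5 and 1 h. WT cells given the MKK1/2 inhibitor PD0325901 (0.1 µM, 10 min before LPS) gave 6 libraries at 0.5 h and 6 at 1 h of LPS, and 3 each after 10, 40, and 70 min of inhibitor with no LPS, beside 3 after 10 min of DMSO. WT cells given the RSK inhibitor RSKi47 (2 µM, 10 min before LPS) have 4 libraries at rest, 3 after 0.5 h, 4 after 1 h, and 4 after 2 h of LPS. The mutant cells carried their alleles throughout, so the macrophages also developed with them.

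GADD45 proteins are small nuclear proteins with no known enzyme activity of their own. They bind the kinase MTK1 (*Map3k4*), which feeds the p38 and JNK MAP kinases, and also PCNA and the CDK1–cyclin B1 complex. Their mRNAs rise quickly after DNA damage, cytokines, and other stresses, *Gadd45a* as a known p53 target and *Gadd45b* as a known NF-κB target. PLK2 and PLK3 are serine/threonine kinases with a Polo-box domain and, unlike the mitotic kinase PLK1, were first described as products of immediate early genes of growth factor signaling.

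Values are on the log2 scale the authors deposited. No source used here states the transformation behind that scale, which may draw differences together, so differences are given on that scale and not as folds. Levels are not divided by gene length and are not compared between genes. No source used here gives the depth of each library, the median gene lay between 7.01 and 7.22 in every library, and the precision comes from the spread of the replicates. The libraries are called biological replicates in the methods of the study, but no source used here says whether a replicate number is an animal, so every p measures only the spread between these libraries. In bulk RNA, fewer cells of a type and less RNA per cell cannot be told apart.

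The 9 macrophage markers had a linear value of at least 10 in all libraries, from *Mertk* (9.48 to 11.01) to *Lyz2* (17.47 to 18.70). *Elk1* and *Elk4* reached at most 6.59 and 5.88 in the deficient libraries against at least 8.55 and 6.88 in all others. The *Map3k8*[D270A] and *Nfkb1*[SS/AA] alleles change amino acids, so mRNA levels do not check them. The summed level of 10 neutrophil genes was 10.06 to 11.06 in *Elk1*-/-*Elk4*-/- libraries and 6.36 to 8.85 in all others, with 4 of the 10 above a linear value of 10 in all libraries and *Ly6g*, *Mpo*, and *Elane* below it in all. The summed level of 3 fibroblast genes was 3.82 to 9.04 in RSKi47 libraries and at most 3.90 in all others. WT replicates 4 to 6 and *Map3k8*[D270A] replicates 1 to 3 (the first set) stood apart from WT replicates 7 to 9 and *Map3k8*[D270A] replicates 4 to 6 (the second set): deviations from group means correlated across genes with a median of 0.292 over 66 pairs of libraries within a set and -0.288 over 66 pairs between sets. The labels name no such batch, and only 1 WT library of the second set exists at 2 h.

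The genes lie on 4 chromosomes of the mm10 (GRCm38) assembly. *Gadd45a* is at chr6:67035096-67037457 on the minus strand, *Gadd45b* at chr10:80930073-80932204 on the plus strand, and *Gadd45g* at chr13:51846678-51848468 on the plus strand. *Plk2* is at chr13:110395046-110400844 on the plus strand, far from *Gadd45g*, and *Plk3* at chr4:117128655-117133963 on the minus strand.

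The 250 bases before the RefSeq start (GRCm38.p6) are shown for *Gadd45b*, *Plk2*, and *Plk3*, the members with the clearest responses to LPS. Each is written 5′ to 3′ on the strand of the gene, and capitals mark matches to any of the motifs searched on both strands. The windows are chr10:80929841-80930090 on the plus strand for *Gadd45b*, chr13:110394794-110395043 on the plus strand for *Plk2*, and chr4:117133964-117134213 on the minus strand for *Plk3*.
Gadd45b: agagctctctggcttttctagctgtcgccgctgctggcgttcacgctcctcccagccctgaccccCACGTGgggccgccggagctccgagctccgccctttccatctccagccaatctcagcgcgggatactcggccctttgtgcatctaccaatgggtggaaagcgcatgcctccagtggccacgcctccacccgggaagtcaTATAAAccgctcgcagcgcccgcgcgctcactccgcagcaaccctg
Plk2: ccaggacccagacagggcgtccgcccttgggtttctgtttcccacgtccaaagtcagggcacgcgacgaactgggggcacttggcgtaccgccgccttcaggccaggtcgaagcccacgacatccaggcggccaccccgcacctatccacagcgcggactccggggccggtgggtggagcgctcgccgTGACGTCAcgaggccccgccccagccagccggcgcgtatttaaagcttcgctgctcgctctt
Plk3: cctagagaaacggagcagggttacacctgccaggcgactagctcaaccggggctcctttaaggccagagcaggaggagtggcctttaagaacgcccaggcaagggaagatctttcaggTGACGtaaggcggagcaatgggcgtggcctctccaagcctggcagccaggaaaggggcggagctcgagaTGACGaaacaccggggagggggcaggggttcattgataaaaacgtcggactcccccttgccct
The *Plk2* window holds the full palindrome TGACGTCA (the cAMP response element, CRE) at positions -62 to -55 before the start, a match that 1.55% of 32851 RefSeq promoter windows of this length hold. The *Plk3* window holds the shorter TGACG, which is part of that palindrome, at -132 to -128 and at -63 to -59, a match found in 17.8% of windows. The *Gadd45b* window holds TATAAA at -46 to -41 and the E-box CACGTG at -185 to -180, found in 12.4% and 6.02% of windows, and the *Gadd45g* window holds both as well. The *Gadd45a* window holds the ETS core CCGGAA at -23 to -18, found in 12.0% of windows. That window is chr6:67037408-67037657 on the minus strand. This match is before the RefSeq start but inside the gene position given above, which starts further upstream. No window of the 5 genes matched the AP-1 motif TGANTCA (6.75% of windows), the NF-κB consensus (7.25%), or the CArG box (1.47%). A match describes letters and not a bound site, and a missing match says only that these letters are not in this window.

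The first comparison asked how the 5 genes moved with LPS in WT cells. *Gadd45b* rose at every time and stayed high, *Plk2* and *Plk3* rose by 0.5 h and were back at or below their resting level by 2 h, *Gadd45a* rose a little at 1 h and then fell, and *Gadd45g* fell at 1 h. Of the 5 genes, 3 passed an adjusted p of 0.05 at 0.5 h (all higher), all 5 at 1 h (4 higher, 1 lower), and 3 at 2 h (1 higher, 2 lower). The same call was made for 11.6%, 46.8%, and 71.5% of all 11884 genes tested, so the counts at 1 and 2 h are read against a broad response. The median difference of the 5 genes was 0.779, 0.885, and -0.195 at the 3 times, beside -0.004, 0, and -0.018 over all genes tested.

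*Gadd45b*, the member known as an NF-κB target that protects cells from JNK-dependent death, ran from 10.42 to 10.66 in the 6 unstimulated WT libraries, with a median of 10.61. By 0.5 h it ran from 11.94 to 12.54 (median 12.15), and at 1 h from 12.91 to 13.20 (median 13.04). At 2 h its 4 libraries stood at 13.19, 13.30, 13.33, and 13.18. No stimulated library overlapped the resting ones, and the largest step came in the first 0.5 h. The differences from rest were 1.66 ± 0.07 (SE), 2.48 ± 0.07, and 2.69 ± 0.08, with adjusted p values of 2.58e-26, 3.68e-35, and 7.82e-35. The further rise of 0.21 ± 0.08 from 1 to 2 h had an adjusted p of 0.0235. It was 0.18, with an adjusted p of 0.115, when the replicate number was a block within WT, and 0.18 without WT replicate 8, where the call was also lost.

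*Plk2* was at 12.81, 12.81, 12.81, 12.86, 12.81, and 13.05 in the 6 resting libraries, WT replicate 9 being the highest. At 0.5 h it ran from 13.86 to 14.43, at 1 h from 13.59 to 13.89, and at 2 h it stood at 12.69, 12.72, 12.74, and 12.74. The libraries at 0.5 and 1 h all lay above the resting ones, and those at 2 h all lay below them. The differences from rest were 1.25 ± 0.07 (adjusted p = 1.97e-21), 0.89 ± 0.07 (adjusted p = 3.23e-16), and -0.14 ± 0.08 (adjusted p = 0.118). The fall from 0.5 to 1 h was -0.37 ± 0.07 and that from 1 to 2 h was -1.02 ± 0.08, with adjusted p values of 1.64e-05 and 7.06e-17. At 0.5 h the 3 libraries of WT replicates 7 to 9 (14.26 to 14.43) lay above those of replicates 4 to 6 (13.86 to 13.93).

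*Plk3* is a kinase of stress and DNA damage signaling. It ran from 5.91 to 6.15 at rest (median 6.04), from 6.63 to 7.08 at 0.5 h (median 6.75), and from 6.80 to 7.22 at 1 h (median 7.11). At 2 h it stood at 5.27, 5.31, 5.0, and 5.20. The values at 0.5 and 1 h lay above all resting values and those at 2 h below all of them. The differences from rest were 0.78 ± 0.07, 1.01 ± 0.07, and -0.84 ± 0.08, with adjusted p values of 1.27e-12, 6.03e-18, and 1.60e-13. The fall between 1 and 2 h, -1.85 ± 0.08 (adjusted p = 7.99e-27), was the largest step of any of the 5 genes between neighboring times in WT. The rise of 0.23 between 0.5 and 1 h did not hold without WT replicate 5 or 6 (0.18 and 0.19), and the means at the 2 times were 6.66 and 7.12 in the first set and 6.97 and 6.97 in the second.

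*Gadd45a*, the p53-inducible member, ran from 8.89 to 9.29 at rest, from 9.05 to 9.39 at 0.5 h, and from 9.27 to 9.74 at 1 h. At 2 h it stood at 8.01, 7.97, 8.20, and 8.01, below every earlier library. The difference from rest was 0.20 ± 0.10 at 0.5 h (adjusted p = 0.221, and 0.0138 with the replicate number as a block within WT), 0.50 ± 0.10 at 1 h (adjusted p = 2.70e-05), and -1.02 ± 0.11 at 2 h (adjusted p = 9.32e-12). The resting libraries overlapped those at 0.5 h and, by a small margin, those at 1 h.

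*Gadd45g* ran from 8.05 to 8.38 at rest and from 7.72 to 7.84 at 1 h, a fall of -0.44 ± 0.08 (adjusted p = 9.32e-06) with no overlap. At 0.5 h WT replicates 4 to 6 lay at 8.61 to 8.73 and replicates 7 to 9 at 8.03 to 8.26, so the mean difference from rest of 0.19 (adjusted p = 0.125) joins libraries that moved differently. It was 0.44 (adjusted p = 5.42e-05) in WT replicates 4 to 6 alone and -0.05 (adjusted p = 0.878) in replicates 7 to 9 alone. At 2 h it stood at 7.94, 8.16, and 8.30 in the first set and at 7.67 in the single library of the second, and the difference from rest was -0.19 ± 0.09 (adjusted p = 0.0547). In WT replicates 7 to 9 alone, with 1 library at 2 h, that difference was -0.50. Between 0.5 and 1 h *Gadd45g* fell by 0.63. The rise from 1 to 2 h (0.25, adjusted p = 0.0171) was lost with the replicate block within WT (0.21, adjusted p = 0.111) and without WT replicate 5 or 6 (0.15 and 0.19). All 5 genes were called between 0.5 and 1 h and between 1 and 2 h, beside 40.3% and 65.3% of all genes.

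**Figure D1:**
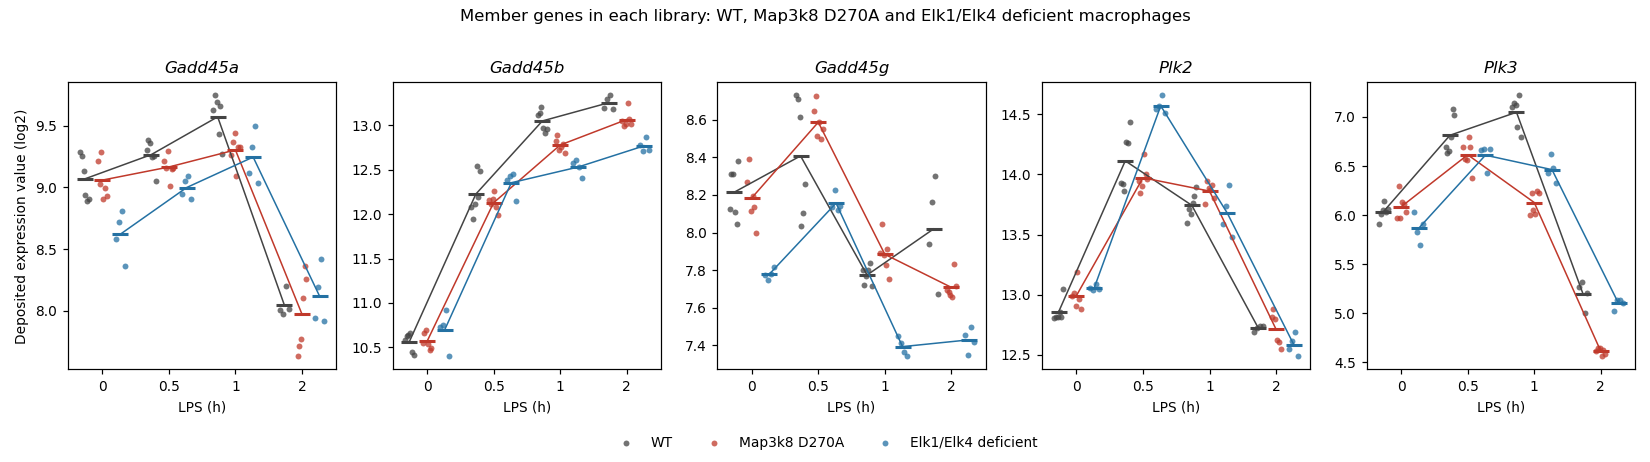
Each point is a library of WT, *Map3k8*[D270A], or *Elk1*-/-*Elk4*-/- macrophages, with hours of LPS on the x axis and the deposited log2 value on the y axis, whose range differs between genes. Bars are group means joined by lines. *Plk3* at 1 h is the widest gap, with *Map3k8*[D270A] libraries at 6.00 to 6.25 and WT libraries at 6.80 to 7.22.

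The comparison with *Map3k8*[D270A] cells asked which members depend on the kinase activity of TPL-2, which activates MKK1/2 and ERK1/2 after LPS. *Plk3* was lower in the mutant cells at 1 and 2 h of LPS, at 1 h in both replicate sets, *Gadd45b* was slightly lower at 1 h, and *Gadd45g* was lower at 2 h. No member was called without LPS or at 0.5 h by limma, beside 1.44% and 1.37% of all genes. At an unadjusted p below 0.05 there was none without LPS, and *Gadd45g* and *Plk3* passed at 0.5 h. At 1 h 2 of the 5 genes were lower (9.79% of all genes called) and at 2 h also 2 (27.7%), and none was higher in the fit of all libraries. Within a set, *Gadd45g* at 0.5 h was higher in the second (0.41, adjusted p = 1.27e-04) and -0.05 in the first, and *Plk2* at 1 h was higher in the first (0.20, adjusted p = 0.0359) and 0.03 in the second.

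*Plk3* in mutant cells at 1 h stood at 6.00, 6.22, 6.06, 6.01, 6.25, and 6.23 in replicates 1 to 6, and the WT libraries lay at 6.80 to 7.22. At 2 h the mutant libraries lay at 4.56 to 4.65 and the WT libraries at 5.0 to 5.31. The groups did not overlap at either time, and the mutant values at 1 h were within the range of their own resting values (5.97 to 6.29). The differences from WT were -0.92 ± 0.07 (adjusted p = 1.68e-14) and -0.58 ± 0.08 (adjusted p = 1.01e-07). At 1 h the difference was -1.03 in the first set and -0.81 in the second, and at 2 h it was -0.56 in the first and -0.62 against the 1 WT library of the second. At 0.5 h it was -0.20 ± 0.07 (adjusted p = 0.218), with -0.05 in the first set and -0.35 in the second (adjusted p = 0.842 and 0.092).

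The rise of *Plk3* over rest in mutant cells was therefore 0.53 ± 0.07 at 0.5 h (adjusted p = 2.33e-07) and 0.04 ± 0.07 at 1 h (adjusted p = 0.691), and at 2 h the level was -1.47 ± 0.07 from rest. The difference between the LPS changes of mutant and WT cells was -0.97 ± 0.10 at 1 h and -0.63 ± 0.11 at 2 h. These passed the test with adjusted p values of 1.22e-09 and 1.88e-05, in comparisons in which 2.02% and 15.5% of all genes passed. At 0.5 h no member passed this test (0.109% of all genes).

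*Gadd45b* was 12.68 to 12.89 in mutant cells at 1 h against 12.91 to 13.20 in WT, a difference of -0.27 ± 0.07 (adjusted p = 0.00898) with no overlap. It was -0.34 in the first set and -0.20 in the second, where the call was lost (adjusted p = 0.329). At 2 h the difference was -0.19 ± 0.08 (adjusted p = 0.0749), with -0.26 in the first set (adjusted p = 0.0134) and -0.07 against the 1 WT library of the second. *Gadd45g* was 7.66 to 7.84 in mutant cells at 2 h, a difference of -0.31 ± 0.09 from WT (adjusted p = 0.00805) that was -0.45 in the first set, 0.06 against the 1 WT library of the second, and -0.22 (not called) without WT replicate 6. In the first set alone 8 of the 20 pairs of gene and time were called, against 4 in the fit of 62 libraries and 6 with every library of the series in the fit, where *Gadd45a* at 1 h and *Gadd45b* at 2 h passed as well. The share of all genes called in the first set alone or with every library was not counted.

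*Gadd45a* and *Plk2* were not called at any time in mutant cells in the fit of 62 libraries without a replicate block. Their largest differences were -0.27 ± 0.10 for *Gadd45a* at 1 h (95% interval -0.47 to -0.07, adjusted p = 0.0814; -0.33 and called in the first set, -0.21 and not called in the second) and -0.14 ± 0.07 for *Plk2* at 0.5 h (adjusted p = 0.449). *Plk2* still rose in mutant cells, by 0.98 ± 0.07 at 0.5 h and 0.87 ± 0.07 at 1 h over rest. *Gadd45a* at 2 h lay at 7.63 to 7.77 in mutant replicates 1 to 3 and at 8.10 to 8.36 in replicates 4 to 6, the former below all WT libraries (7.97 to 8.20) and the latter reaching above them. The mutant mean was 7.71 against 8.06 in WT in the first set, and 8.24 against 8.01 in the 1 WT library of the second. Against their own rest, mutant cells had 4 of the 5 genes called at 0.5 h (5.08% of all genes), 4 at 1 h (41.9%), and 5 at 2 h (69.5%). The 1 h rise of *Gadd45a* over rest (0.24) was lost without any 1 of mutant replicates 2 to 6 or *Elk1*-/-*Elk4*-/- replicate 2 (0.21 to 0.26).

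**Figure D2:**
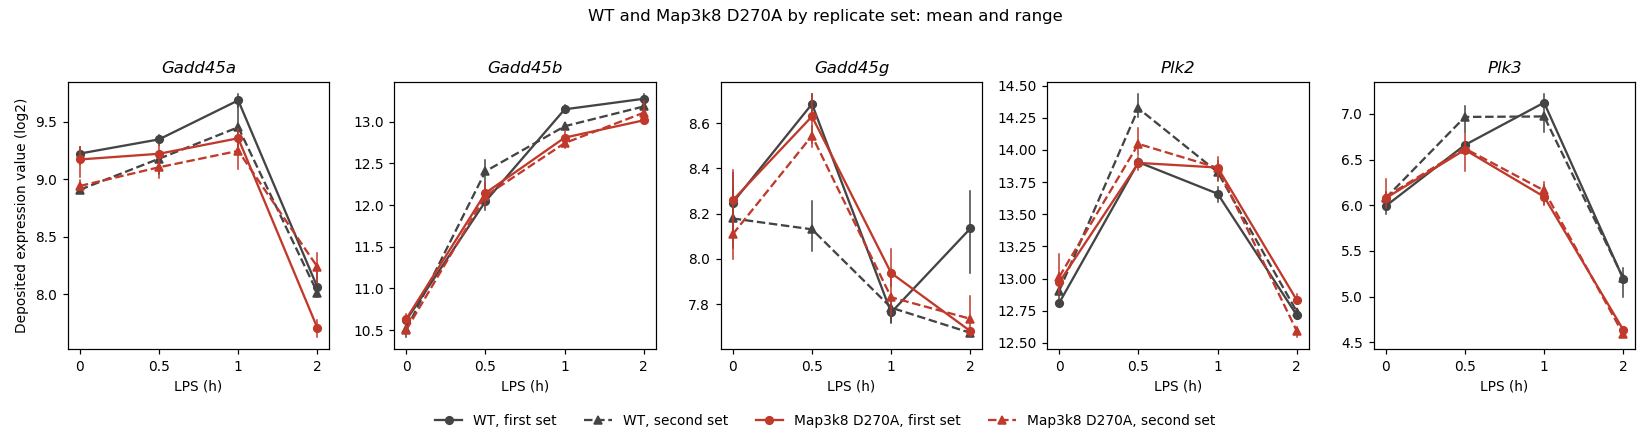
Mean (symbols) and range (vertical lines) of each gene in the first and second set of WT and *Map3k8*[D270A] replicates, by hours of LPS (x axis) and deposited log2 value (y axis, range differs between genes). *Plk3* is lower in mutant cells at 1 h in both sets, whereas *Gadd45g* at 0.5 h in WT differs between the sets. The second WT set has 1 library at 2 h.

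*Elk1* and *Elk4* encode ternary complex factors, which ERK1/2 phosphorylates and which act with SRF on immediate early genes. In *Elk1*-/-*Elk4*-/- cells *Gadd45b* was lower than in WT at 1 and 2 h, *Plk3* was lower at 1 h, and *Gadd45g* was lower at each of the 4 times. These cells differed from WT in many genes even at rest: 51.8%, 44.4%, 53.4%, and 50.8% of all genes were called at the 4 times, and 3, 4, 4, and 2 of the 5 members. With 5 genes these counts are not far from that background. The summed neutrophil genes were higher in the same libraries, and their part in these differences was not tested. The labels place these libraries in an experiment of their own, so genotype and experiment cannot be told apart.

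*Gadd45b* was 12.38, 12.42, 12.45, and 12.15 at 0.5 h in the 4 deficient libraries, within the WT range. At 1 h it was 12.58, 12.60, 12.53, and 12.40, and at 2 h 12.77, 12.71, 12.87, and 12.72. All of the later values lay below all WT libraries of the same time. The 0.5 h difference was 0.31 (adjusted p = 0.00121) against WT replicates 4 to 6 alone and -0.05 against replicates 7 to 9 alone. With all WT libraries the differences were 0.13 ± 0.08 (adjusted p = 0.199), -0.52 ± 0.08 (adjusted p = 4.64e-07), and -0.48 ± 0.09 (adjusted p = 9.53e-06). The difference between the LPS changes was -0.66 ± 0.11 at 1 h and -0.62 ± 0.12 at 2 h, with adjusted p values of 2.35e-04 and 1.35e-04, where 1.35% and 16.9% of all genes passed.

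*Plk3* at 1 h was 6.43, 6.62, 6.48, and 6.32, below every WT library, with a difference of -0.59 ± 0.08 (adjusted p = 3.89e-08). It was still 0.60 ± 0.09 above its own rest. At 2 h it was 5.02 to 5.14, overlapping WT. The difference between the LPS changes at 1 h was -0.42 ± 0.12 (adjusted p = 0.0488), a call that was lost in 13 of 20 alternatives, 11 of which each left out a replicate (-0.48 to -0.35). These were any 1 of WT replicates 4, 5, 6, and 8, *Map3k8*[D270A] replicates 1, 2, 3, and 5, and deficient replicates 1, 2, and 4.

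*Plk2* was 14.54, 14.57, 14.66, and 14.51 at 0.5 h, the highest level of the gene in any group and above all WT libraries (difference 0.46 ± 0.08, adjusted p = 5.06e-06). This was 0.67 against WT replicates 4 to 6 alone and 0.25 against replicates 7 to 9 alone, called with either control. At 1 and 2 h it did not pass the test, with differences of -0.06 and -0.14. *Gadd45g* was 7.75 to 7.82 at rest against 8.05 to 8.38 in WT, and its differences from WT at the 4 times were -0.43, -0.25, -0.38, and -0.59. Against WT replicates 7 to 9 alone that at 0.5 h was 0.03 and that at 2 h was -0.24 (adjusted p = 0.0725). *Gadd45a* at rest was 8.58, 8.72, 8.81, and 8.36, below all WT libraries (-0.45 ± 0.11, adjusted p = 7.12e-04), and at 2 h it was 7.91 to 8.42, with a difference of 0.07. The resting *Gadd45a* difference was -0.29 (adjusted p = 0.0768) with WT replicates 7 to 9 alone as the control, and with that control 7 of the 20 pairs of gene and time were called against 13. The share of all genes called with that control was not counted.

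Several of the smaller calls in these cells lay near the threshold and were lost when replicates were left out, although the differences moved little. At 0.5 h that of *Gadd45a* (-0.27) was lost without any 1 of WT replicates 4 to 8 or of deficient replicates 1, 2, and 4 (-0.28 to -0.24), and that of *Gadd45g* (-0.25) without any 1 of WT replicates 4 to 6 or of deficient replicates 1, 3, and 4 (-0.25 to -0.19). The resting *Plk2* call (0.20) was lost without any 1 of the 4 deficient replicates or WT replicate 5 (0.19 to 0.20). That of *Plk3* at 0.5 h (-0.20) was lost without WT replicate 8 or 9 or deficient replicate 3 (-0.16 to -0.14), and that of *Gadd45a* at 1 h (-0.33) without deficient replicate 1 or 4 (-0.28 to -0.26). The former was -0.05 against WT replicates 4 to 6 alone, and the latter -0.21 and not called against replicates 7 to 9 alone. Against their own rest, deficient cells had 4 of the 5 genes called at 0.5 h (4.96% of all genes), 5 at 1 h (33.3%), and 5 at 2 h (67.2%), the 0.5 h rise of *Gadd45g* (0.38) being lost without any 1 of the 4 deficient replicates (0.34 to 0.39). At 0.5 h no member passed the test of its LPS change against WT (0.0589% of all genes). At 2 h *Gadd45a* (0.52) and *Plk2* (-0.34) also passed it. The *Gadd45a* call was lost without WT replicate 4 or 5 or deficient replicate 3 or 4 (0.45 to 0.50), and the *Plk2* call without any 1 of WT replicates 4 to 8 or deficient replicates 1, 2, and 4 (-0.35 to -0.31).

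**Figure D3:**
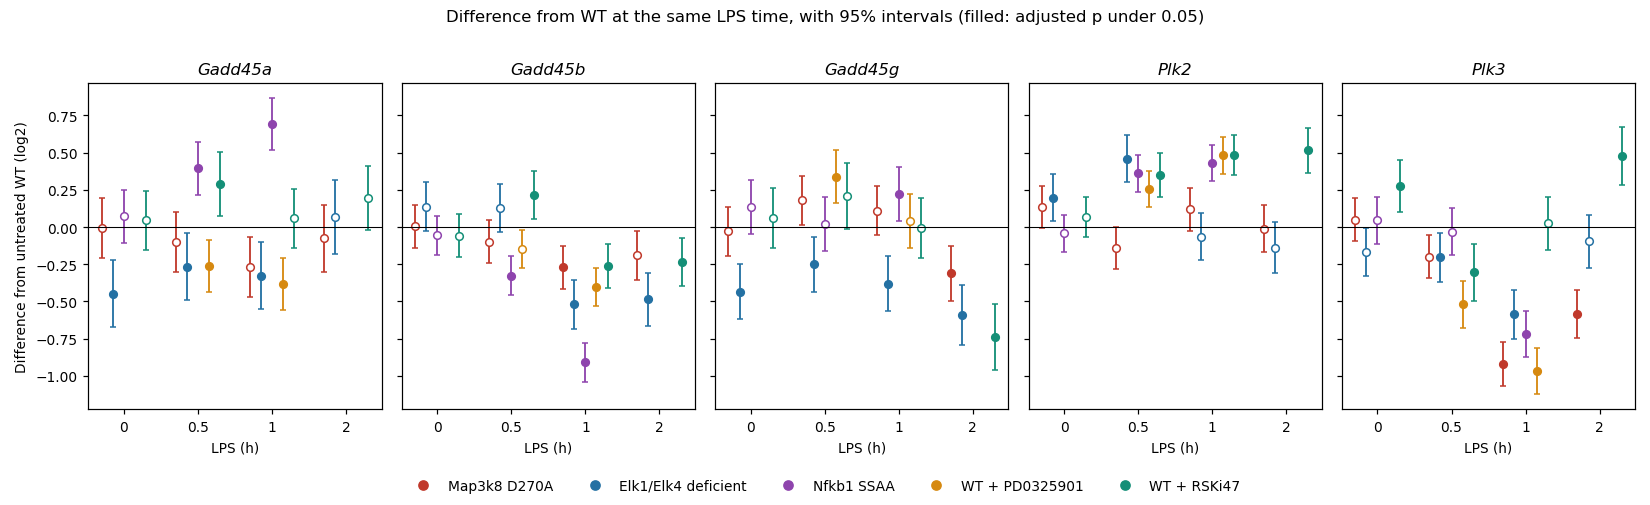
Difference from untreated WT at the same hours of LPS (x axis) on the deposited log2 scale (y axis) for 5 genes and 5 arms. Points are limma estimates, bars 95% intervals, and filled points an adjusted p below 0.05. At 1 h the estimate for *Plk3* is -0.92 in *Map3k8*[D270A], -0.59 in *Elk1*-/-*Elk4*-/-, -0.72 in *Nfkb1*[SS/AA], -0.97 with PD0325901, and 0.03 with RSKi47.

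*Nfkb1*[SS/AA] cells keep p105 intact after LPS, which holds TPL-2 inactive and also limits NF-κB activation. At rest limma called none of the 5 members, and none had an unadjusted p below 0.05, beside 32% of all genes called. At 0.5 h 3 were called (32.3%) and at 1 h all 5 (42.5%). *Gadd45b* and *Plk3* were lower at 1 h, whereas *Gadd45a*, *Plk2*, and *Gadd45g* were higher. These libraries also form an experiment of their own in the labels, and genotype and experiment cannot be told apart. The same WT libraries serve as the control of every arm, so the arms are not independent of each other.

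*Gadd45b* was 11.97 to 12.38 at 1 h (median 12.09) against 12.91 to 13.20 in WT. The difference was -0.91 ± 0.07 (adjusted p = 2.86e-22) with no overlap, the largest in this gene between an arm and WT. At 0.5 h it was -0.33 ± 0.07 (adjusted p = 3.67e-05), with overlap, and -0.15 (adjusted p = 0.109) with WT replicates 4 to 6 alone as the control. Over its own rest the gene still rose by 1.39 ± 0.07 and 1.63 ± 0.07.

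*Gadd45a* was 10.09 to 10.53 at 1 h (median 10.23), above every library of the other groups. WT libraries ran from 9.27 to 9.74 at that time, and the difference was 0.69 ± 0.09 (adjusted p = 2.29e-10). By 0.5 h it was 9.51 to 9.77 against 9.05 to 9.39 in WT (0.39 ± 0.09, adjusted p = 2.43e-04), again with no overlap. Rest did not separate the genotypes, with 8.79 to 9.39 in mutant cells.

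*Plk3* was 6.23 to 6.48 at 1 h (median 6.32), below all WT libraries, with a difference of -0.72 ± 0.08 (adjusted p = 7.69e-13). The values at 0.5 h were 6.58 to 6.95, which overlapped WT (-0.03 ± 0.08, adjusted p = 0.798). *Plk2* was 14.04 to 14.39 at 1 h against 13.59 to 13.89 in WT (0.43 ± 0.06, adjusted p = 7.76e-09) and 14.40 to 14.55 at 0.5 h (0.36 ± 0.06, adjusted p = 1.34e-06). At 0.5 h this was 0.15 (adjusted p = 0.078) against WT replicates 7 to 9 alone. *Gadd45g* at 1 h was 7.70 to 8.26, and its difference of 0.22 (adjusted p = 0.0428) was lost in 11 of 19 alternatives, among them leaving out WT replicate 5, 6, or 9 or mutant replicate 2, 4, or 6 (0.17 to 0.22).

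The difference between the LPS changes of mutant and WT cells passed the test at 1 h for 4 of the 5 genes, where 6.07% of all genes passed. It was 0.62 for *Gadd45a*, -0.85 for *Gadd45b*, 0.47 for *Plk2*, and -0.76 for *Plk3*. The test at 0.5 h passed for *Plk2* alone (0.40, adjusted p = 0.00708, and 0.36, not called, without WT replicate 6), where 0.309% of all genes passed. Against their own rest, mutant cells had 4 of the 5 genes called at 0.5 h (14.6% of all genes) and 5 at 1 h (44.4%).

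PD0325901 blocks MKK1/2 and so ERK1/2 activation from any input. With LPS, *Plk3* was lower at both times, *Plk2* was higher at both, and *Gadd45b* was lower at 1 h. Of the 5 genes 4 were called at 0.5 h (29.4% of all genes) and 4 at 1 h (35.7%). The control here was untreated WT from another labelled experiment and had no DMSO, so inhibitor, solvent, and experiment cannot be told apart in these differences. The neutrophil sum was also higher with the inhibitor, at 8.15 to 8.39 against 6.43 to 7.34 at 0.5 h and 8.32 to 8.85 against 6.57 to 7.83 at 1 h, and its part in them was not tested.

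*Plk3* was 6.18 to 6.39 at 0.5 h with the inhibitor against 6.63 to 7.08 without, and 6.02 to 6.27 at 1 h against 6.80 to 7.22. Neither pair of groups overlapped, and the differences were -0.52 ± 0.08 (adjusted p = 1.46e-07) and -0.97 ± 0.08 (adjusted p = 1.47e-18). *Plk2* was 14.15 to 14.28 at 1 h against 13.59 to 13.89 (0.48 ± 0.06, adjusted p = 3.61e-10), and 14.29 to 14.41 at 0.5 h (0.26 ± 0.06, adjusted p = 6.86e-04). The 0.5 h difference of *Plk2* was 0.05 against WT replicates 7 to 9 alone.

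*Gadd45b* was 12.58 to 12.75 at 1 h, below all WT libraries (-0.40 ± 0.07, adjusted p = 4.89e-07), and 11.90 to 12.19 at 0.5 h (-0.15 ± 0.07, adjusted p = 0.0789). The 0.5 h difference was -0.33 (adjusted p = 5.55e-04) against WT replicates 7 to 9 alone and 0.03 against replicates 4 to 6 alone. *Gadd45a* was lower by a smaller step at 0.5 h (8.95 to 9.03, difference -0.26 ± 0.09) and at 1 h (9.13 to 9.30, difference -0.38 ± 0.09). Both *Gadd45a* calls were lost against WT replicates 7 to 9 alone (-0.18 and -0.26), and that at 0.5 h also with PD0325901 replicates 1 and 4, 2 and 5, and 3 and 6 averaged (adjusted p = 0.0999). *Gadd45g* was 8.56 to 8.98 at 0.5 h (0.34 ± 0.09, adjusted p = 0.00259), which was 0.06 against WT replicates 4 to 6 alone, and it was not called at 1 h (0.04).

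These genes also changed over the time in PD0325901 with no LPS in the culture. From 10 to 70 min of PD0325901, *Gadd45b*, *Gadd45g*, and *Gadd45a* rose and *Plk3* fell. Of the 5 genes 3 were called between 10 and 40 min (3.58% of all genes) and 4 between 10 and 70 min (6.09%), which stand above the background of a comparison in which few genes moved. No untreated or DMSO culture of 40 or 70 min was among these libraries, so time in fresh handling and the inhibitor cannot be told apart. The neutrophil sum of these libraries was 7.40 to 8.14 at 10 min, 8.48 to 8.83 at 40 min, and 8.49 to 8.52 at 70 min. The sum of 3 B cell genes, each below a linear value of 10 in all libraries, was 3.11 to 3.16 at 10 min and 3.27 to 3.42 later. The part of either in these changes was not tested.

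*Gadd45b* was 10.28, 10.22, and 10.23 at 10 min, 10.78, 10.86, and 10.71 at 40 min, and 11.14, 11.13, and 11.06 at 70 min. The 3 groups did not overlap, and the differences from 10 min were 0.54 ± 0.09 (adjusted p = 1.99e-05) and 0.87 ± 0.09 (adjusted p = 1.67e-12). *Plk3* was 6.21, 5.88, and 6.02 at 10 min, 5.48, 5.55, and 5.62 at 40 min, and 5.18, 5.07, and 4.94 at 70 min. Its groups did not overlap either, with differences of -0.49 ± 0.11 (adjusted p = 0.00327) and -0.97 ± 0.11 (adjusted p = 3.47e-11).

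*Gadd45g* was 7.95, 7.92, and 7.80 at 10 min, 8.45, 8.70, and 8.31 at 40 min, and 8.60, 8.50, and 8.48 at 70 min, with differences of 0.60 ± 0.13 and 0.64 ± 0.13. *Gadd45a* was 8.46 to 8.50 at 10 min, 8.65 to 8.74 at 40 min, and 8.90 to 8.96 at 70 min, and passed the test at 70 min (0.45 ± 0.13, adjusted p = 0.0167). *Plk2* was 12.86 to 12.87 at 10 min and 12.67 to 12.70 at 70 min, a difference of -0.18 ± 0.09 (adjusted p = 0.276). Without any 1 of PD0325901 replicates 1 to 3 the *Gadd45a* call at 70 min was lost (0.42 to 0.46). At 40 min the *Plk3* call was lost without replicate 1 (-0.36) and that of *Gadd45g* without replicate 2 (0.51).

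At 10 min PD0325901 and DMSO libraries overlapped for every member. limma called 0% of all genes there, with 245 genes at an unadjusted p below 0.05 and none of the 5 members among them. The largest member difference was -0.05 ± 0.09 for *Gadd45b* (95% interval -0.23 to 0.14). DMSO at 10 min lay below untreated WT for *Gadd45a* (8.52, 8.50, and 8.49 against 8.89 to 9.29), *Gadd45b* (10.30, 10.28, and 10.30 against 10.42 to 10.66), and *Gadd45g* (7.89, 7.86, and 7.82 against 8.05 to 8.38). These 3 differences, -0.56, -0.27, and -0.36, passed the test with 23.6% of all genes, across 2 labelled experiments. That of *Gadd45b* was -0.22 (adjusted p = 0.073) against WT replicates 7 to 9 alone, and that of *Gadd45g* was lost without DMSO replicate 3 (-0.34).

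Measured against the inhibitor alone at the same inhibitor time, LPS raised *Plk3* by 0.74 ± 0.10 at 0.5 h and 1.02 ± 0.10 at 1 h, beside 0.78 and 1.01 in untreated WT. The difference between these LPS changes was -0.03 ± 0.13 (95% interval -0.28 to 0.21) and 0.00 ± 0.13 (-0.24 to 0.25), so the lower level with LPS was matched by a lower level without it. *Gadd45b* rose by 1.29 ± 0.08 and 1.53 ± 0.08 and *Plk2* by 1.50 ± 0.08 and 1.54 ± 0.08. Their LPS changes at 1 h differed from those of WT by -0.95 ± 0.10 (adjusted p = 3.49e-12) and 0.65 ± 0.10 (adjusted p = 2.18e-07), where 3.58% of all genes passed, and at 0.5 h *Gadd45b* passed (-0.37, adjusted p = 0.0445, 1.49% of all genes). This last call was lost in 12 of 26 alternatives, 11 of which each left out a replicate (-0.41 to -0.29), namely any 1 of WT replicates 7 to 9, PD0325901 replicates 1, 2, 3, 5, and 6, and RSKi47 replicates 1 to 3. The WT change is taken from untreated cells with no wait, so the resting references differ in handling. Against the inhibitor alone, 4 of the 5 genes were called at 0.5 h (14.9% of all genes) and 5 at 1 h (43.6%). The calls of *Gadd45a* (0.31 and 0.26) were lost at both times without any 1 of PD0325901 replicates 1, 2, 3, and 6, and at 0.5 h also without replicate 4 (0.24 to 0.33).

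**Figure D4:**
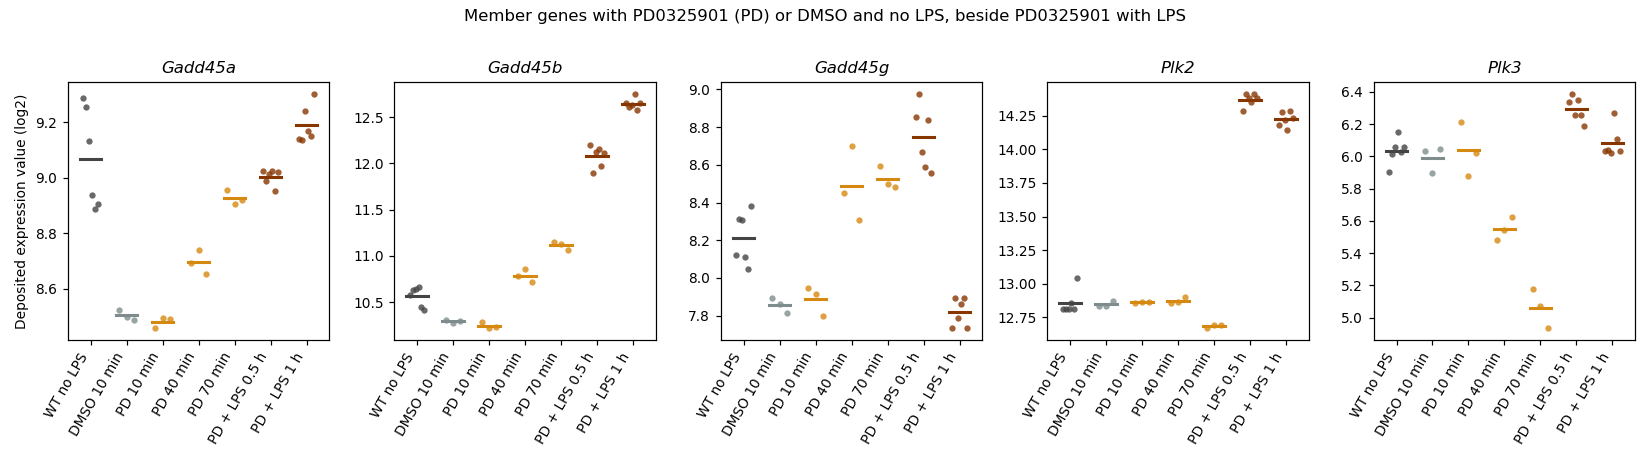
Each point is a library of WT macrophages, and horizontal bars are group means on the deposited log2 scale (y axis, range differs between genes), for untreated cells, DMSO at 10 min, PD0325901 alone at 10, 40, and 70 min, and PD0325901 with LPS. *Gadd45b* rises from 10.22 to 10.28 at 10 min of inhibitor to 11.06 to 11.14 at 70 min, and *Plk3* falls from 5.88 to 6.21 to 4.94 to 5.18.

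RSKi47 targets RSK, a kinase activated by ERK1/2. In these cells *Plk2* was higher than in untreated WT at each LPS time, and *Plk3* was lower at 0.5 h and higher at 2 h. These libraries differed from WT in 53%, 48.2%, 52.8%, and 52.1% of all genes at rest and at the 3 LPS times, and 1, 4, 2, and 4 of the 5 members were called, so the counts lie below the background at rest and at 1 h. Inhibitor and labelled experiment cannot be told apart. The libraries at rest had 10 min of RSKi47, and no RSKi47 culture without LPS was kept for longer among these libraries. LPS and time in the inhibitor therefore cannot be told apart in the LPS changes of this arm. *Col1a1* carried the higher fibroblast sum of these libraries (9.03 in 1 of them), with *Col3a1* and *Pdgfra* under a linear value of 10 in every library. The neutrophil sum lay above that of WT at rest (7.57 to 7.89 against 6.53 to 7.29) and at 2 h (7.98 to 8.63 against 6.57 to 7.81). The part of either sum in these results was not tested.

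*Plk2* was 13.94, 14.27, 14.32, and 14.38 at 1 h with RSKi47, above the WT range of 13.59 to 13.89, and 13.34, 13.19, 13.32, and 13.11 at 2 h against 12.69 to 12.74. The groups did not overlap, and the differences were 0.48 ± 0.07 (adjusted p = 3.48e-09) and 0.51 ± 0.08 (adjusted p = 7.90e-09). At 0.5 h it was 14.49, 14.40, and 14.50 (0.35 ± 0.08, adjusted p = 5.89e-05), which was 0.14 (adjusted p = 0.132) against WT replicates 7 to 9 alone. The LPS change of *Plk2* differed from that of WT by 0.42 ± 0.10 at 1 h and 0.45 ± 0.10 at 2 h, where 5.54% and 21% of all genes passed.

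*Plk3* was 6.14, 6.24, 6.12, and 6.74 at rest, 6.43, 6.52, and 6.57 at 0.5 h, 6.94, 7.11, 6.89, and 7.35 at 1 h, and 5.50, 5.46, 5.70, and 6.03 at 2 h. Replicate 4 was the highest at each time it was measured. The difference from WT was 0.03 ± 0.09 at 1 h (95% interval -0.15 to 0.20) and 0.48 ± 0.10 at 2 h (adjusted p = 1.85e-05), and -0.31 ± 0.10 at 0.5 h (adjusted p = 0.00664). The 0.5 h difference was -0.15 against WT replicates 4 to 6 alone, and the resting one (0.28, adjusted p = 0.00633) was 0.13 and not called without RSKi47 replicate 4.

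*Gadd45b* with RSKi47 was 12.68 to 12.89 at 1 h (-0.26 ± 0.07, adjusted p = 0.00178) and 12.96 to 13.07 at 2 h (-0.23 ± 0.08, adjusted p = 0.011), below all WT libraries at both times. Against WT replicates 7 to 9 alone neither passed (-0.16 at each time). *Gadd45g* at 2 h was 7.41, 7.30, 7.20, and 7.21, the lowest mean of the gene in any group, against 7.67 to 8.30 in WT (-0.74 ± 0.11, adjusted p = 2.12e-08). Against the 1 library of WT replicates 7 to 9 at that time it was -0.39. Its LPS change at 2 h differed from that of WT by -0.80 ± 0.15. At 0.5 h the calls of *Gadd45a* (0.29) and *Gadd45b* (0.22) were lost without RSKi47 replicate 1 or WT replicate 9 for the first (0.24 and 0.25) and without RSKi47 replicate 2 or 3 or WT replicate 4 or 5 for the second (0.16 to 0.21). Against WT replicates 7 to 9 alone the second was 0.04 (adjusted p = 0.77). Against their own rest, RSKi47 cells had 3 of the 5 genes called at 0.5 h (5.1% of all genes), 5 at 1 h (29%), and 5 at 2 h (62.2%), and the 0.5 h rise of *Gadd45a* (0.44) was lost without any 1 of RSKi47 replicates 1 to 3 (0.40 to 0.45). At 0.5 h no member passed the test of its LPS change against WT (0.0251% of all genes), *Plk3* lying nearest at -0.58 (adjusted p = 0.0531).

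**Figure D5:**
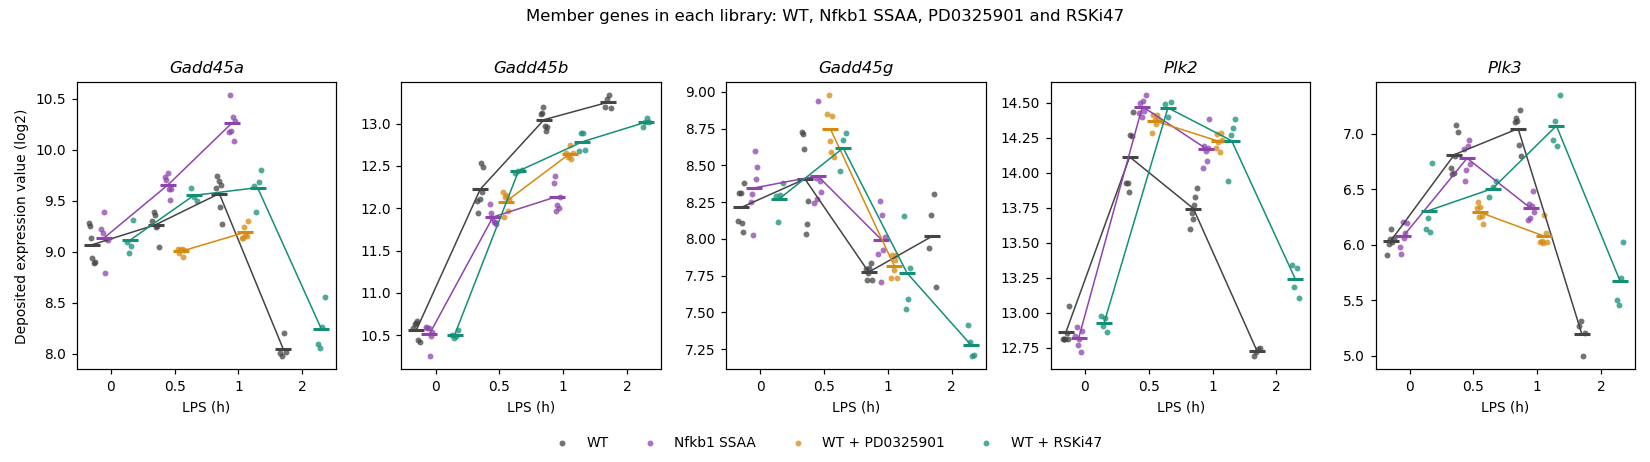
Each point is a library of untreated WT, *Nfkb1*[SS/AA], PD0325901, or RSKi47 macrophages, with hours of LPS on the x axis and the deposited log2 value on the y axis, whose range differs between genes. Bars are group means joined by lines. At 1 h *Gadd45a* is highest in *Nfkb1*[SS/AA] (10.09 to 10.53), and *Plk2* lies between 13.94 and 14.39 in the 3 other arms and between 13.59 and 13.89 in WT.

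Over all 25 groups, *Gadd45b* had the widest span of group means, 10.25 (PD0325901 alone at 10 min) to 13.25 (WT at 2 h), and *Gadd45g* the narrowest, 7.28 to 8.75. *Gadd45a* ran from 7.97 to 10.26, *Plk2* from 12.58 to 14.57, and *Plk3* from 4.61 (*Map3k8*[D270A] at 2 h) to 7.07 (RSKi47 at 1 h). In the order of its levels, neighboring groups differed by no more than the larger of their SDs in 19 of 24 steps for *Gadd45a*, 15 for *Gadd45b*, 22 for *Gadd45g*, 16 for *Plk2*, and 18 for *Plk3*. The top step of *Gadd45a*, from *Nfkb1*[SS/AA] at 1 h (10.26) to *Nfkb1*[SS/AA] at 0.5 h (9.66), exceeded the SDs, and so did that of *Gadd45b*, from WT at 2 h to *Map3k8*[D270A] at 2 h (13.06).

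Group means of *Plk2* and *Plk3* went together over the 25 groups (Pearson's r = 0.745), as did those of *Gadd45a* with *Plk3* (r = 0.776) and *Plk2* (r = 0.699). *Gadd45b* and *Gadd45a* showed almost no such relation (r = 0.028), nor did *Gadd45b* and *Plk3* (r = 0.038), and *Gadd45b* and *Gadd45g* gave r = -0.350. The groups share LPS times and libraries, so these values describe the groups. Among 11969 genes, the patterns most like that of *Gadd45b* were *Socs3* (r = 0.976), *Zc3h12a* (0.956), and *Irf1* (0.955). Those most like *Plk2* were *Gdf15* (0.927), *Btg2* (0.914), and *Phlda1* (0.904), and those most like *Plk3* were *Slc20a1* (0.887), *Spry2* (0.879), and *Ranbp9* (0.878). For *Gadd45a* they were *Fbxw7*, *Hs2st1*, and *Prkag2* (0.876 to 0.881), and for *Gadd45g* *Ccdc130*, *Tymp*, and *Wfikkn1* (0.851 to 0.877).

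The other genes of these routes were read from lists chosen with earlier results of these data known, so the counts are a description. Of 12 genes of the MAP kinase route and partners of GADD45 proteins, 2 rose in WT at 0.5 h of LPS, 5 rose and 2 fell at 1 h, and 4 rose and 3 fell at 2 h, with median differences of 0.021, 0.1, and -0.042. These counts stand beside 11.6%, 46.8%, and 71.5% of all genes called, so the share at 2 h is below that of all genes. In *Map3k8*[D270A] cells 1 was lower at 1 h (9.79% of all genes called), and 3 were higher and 3 lower at 2 h (27.7%). *Map3k4*, the kinase that GADD45 proteins bind, was at -1.16 ± 0.05 from rest at 2 h, and *Map2k3* and *Map2k4*, kinases upstream of p38 and JNK, rose by 1.27 and 0.90. In *Map3k8*[D270A] cells at 2 h *Map2k3* was lower than in WT (-0.79) and *Map3k4* higher (0.30). Of the 2 other GADD-named genes, *Ppp1r15a* (GADD34, a phosphatase subunit that ends translational arrest) rose by 2.78, 2.80, and 1.76 at the 3 times, and *Ddit3* (CHOP, a stress transcription factor) was at -0.57 and -0.93 at 1 and 2 h. Of the 3 other Polo-like kinases 2 could be tested, and *Plk4*, which acts in centriole duplication, rose by 0.78 at 1 h.

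Of 23 tested p53 pathway genes, 7 rose in WT at 0.5 h, 8 rose and 6 fell at 1 h, and 6 rose and 13 fell at 2 h (median -0.338, beside -0.018 over all genes). The shares of all genes called were again 11.6%, 46.8%, and 71.5%. *Cdkn1a*, the cell cycle inhibitor p21, rose by 1.72 and 2.01 at 1 and 2 h and *Fas*, a death receptor, by 0.72 and 2.11, whereas *Sesn1* and *Trp53inp1* were at -2.37 and -2.22 at 2 h. In *Nfkb1*[SS/AA] cells at 1 h, 2 of the 23 were higher and 9 lower (42.5% of all genes called), and *Cdkn1a* was at -0.31. None was higher and 5 were lower at rest (32%), and none was higher and 6 were lower at 0.5 h (32.3%). The LPS change at 1 h differed from that of WT in 1 that was higher and 4 that were lower (6.07%). With PD0325901 none was higher at 0.5 h and 1 at 1 h, and 13 were lower at each time (medians -0.168 and -0.141), beside 29.4% and 35.7% of all genes called. These differences are from untreated WT of another labelled experiment. DMSO alone against that WT at rest had none higher and 4 lower (23.6% of all genes called). The LPS change with PD0325901 differed from that of WT in 1 of the 23 at each time, which was lower (1.49% and 3.58%).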

How the data were processed

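RNA was sequenced on an Illumina platform, and per the submitters' processing notes reads were mapped and counted per gene with STAR 2.5.1b and RSEM 1.2.29 and handled with DESeq2 1.10.1, with mm10 as the genome build. The authors deposited 1 table of normalized values on a log2 scale for 18098 genes and 119 libraries, all columns of which matched a sample by name. No source used here states the transformation or each library's read depth, and the methods of the study give only a typical yield. A single value above 25 (*Fosb*, RSKi47 replicate 1 at 1 h) was set missing.

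The deposited log2 values were fitted with limma 3.58.1 in R 4.3.3 on group means. A fit of 62 libraries (WT, *Map3k8*[D270A], and *Elk1*-/-*Elk4*-/-; 11884 genes reaching a linear value of 10 in 4 or more libraries) gave the WT, *Map3k8*[D270A], and *Elk1*-/-*Elk4*-/- comparisons, and a fit of all 119 (11971 genes, 3 or more libraries) gave the others. p values were adjusted by Benjamini-Hochberg over all genes of a comparison, with a threshold of 0.05. The scripts were tested on simulated data.

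The 5 genes and all gene lists were chosen with earlier results of these data known. Genes other than the 5 were named by rule: up to 4 genes of a list with the largest change in WT, the 3 nearest patterns per gene, and the mutated genes. Within WT, deviations from group means correlated in all 30 pairs of libraries sharing a replicate number (lowest 0.164, median 0.483). Within *Nfkb1*[SS/AA] they did in all 18 (lowest 0.145). These numbers were taken to pair samples, from the data and not from the labels. WT libraries that share a number also share a replicate set, so in WT this check cannot separate pairing from the set. The main fits hold no replicate block, and the block was used only as an alternative. Alternatives were the replicate number as a block, other filters, each replicate left out, each replicate set alone, other sets of libraries in the fit, PD0325901 replicates averaged in pairs, and a 2-fold threshold. Leaving out a replicate removed its libraries at every time of the arm. Gene positions are from GENCODE M21 and promoter sequences, matched for 5 of 5 genes by symbol, from RefSeq.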

Additional observations from a re-analysis of the deposited data

Results flagged for a closer look

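In 7 of 100 sets of libraries of 1 gene and group (4 to 6 libraries each), 1 library lay further from the others than Dixon's test allows at the 95% level, which chance alone does in about 1 in 20 such sets. *Gadd45b* in *Map3k8*[D270A] replicate 4 at 2 h was 13.24, with the others at 12.99 to 13.07, and in *Nfkb1*[SS/AA] replicate 4 without LPS it was 10.25, with the others at 10.49 to 10.60. *Gadd45g* was 7.84 in *Map3k8*[D270A] replicate 5 at 2 h (others 7.66 to 7.72) and 8.94 in *Nfkb1*[SS/AA] replicate 4 at 0.5 h (others 8.24 to 8.41). *Plk2* was 13.05 in WT replicate 9 without LPS (others 12.81 to 12.86). *Plk3* was 6.43 in *Elk1*-/-*Elk4*-/- replicate 3 at 0.5 h (others 6.66 to 6.68) and 6.27 in PD0325901 replicate 4 at 1 h of LPS (others 6.02 to 6.11).

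The change with LPS in another arm differed from that in WT, by limma's test of the difference itself, in 18 of 65 tests over the 5 genes, all against the same WT libraries. Among all genes, 0.0251% to 21% passed in these comparisons. For *Plk3* the difference was -0.97 at 1 h and -0.63 at 2 h in *Map3k8*[D270A], -0.42 at 1 h in *Elk1*-/-*Elk4*-/-, and -0.76 at 1 h in *Nfkb1*[SS/AA]. For *Gadd45b* it was -0.66 at 1 h and -0.62 at 2 h in *Elk1*-/-*Elk4*-/-, -0.85 at 1 h in *Nfkb1*[SS/AA], and -0.37 at 0.5 h and -0.95 at 1 h with PD0325901. *Plk2* differed by -0.34 at 2 h in *Elk1*-/-*Elk4*-/-, by 0.40 at 0.5 h and 0.47 at 1 h in *Nfkb1*[SS/AA], by 0.65 at 1 h with PD0325901, and by 0.42 at 1 h and 0.45 at 2 h with RSKi47. *Gadd45a* differed by 0.52 at 2 h in *Elk1*-/-*Elk4*-/- and by 0.62 at 1 h in *Nfkb1*[SS/AA], and *Gadd45g* by -0.80 at 2 h with RSKi47.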

How the results depend on the processing

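Of 151 called values of the 5 genes, 110 stayed called in every alternative other than the 2-fold threshold, 41 were lost in at least 1, and 2 of these also changed sign. At a difference of at least 1 on the log2 scale, 6 of the 15 pairs of gene and time stayed called for LPS in WT, 3 of 10 between LPS times, 24 of 65 for LPS in the other arms, and 0 in each of the comparisons of *Map3k8*[D270A], *Elk1*-/-*Elk4*-/-, *Nfkb1*[SS/AA], PD0325901 with or without LPS, DMSO, and RSKi47 and in the differences between LPS changes. Called pairs in *Map3k8*[D270A] against WT numbered 4, 6 with all libraries of the series in the fit, and 8 both in the first replicate set alone and with the replicate number as a block across arms. With WT replicates 7 to 9 alone as the control, 7 were called in *Elk1*-/-*Elk4*-/- (13 with all) and 7 with RSKi47 (11 with all). The share of all genes called in each alternative was not counted. The causes of these changes were not tested.

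Among values that were called or larger than their SE in the main fit, the direction changed in 9 instances. Smaller differences were not followed. The difference had been called in 2 of these, *Gadd45g* in *Map3k8*[D270A] at 2 h (-0.31) and in *Elk1*-/-*Elk4*-/- at 0.5 h (-0.25). *Gadd45g* in *Map3k8*[D270A] at 1 h was -0.0274 with the replicate block. In the first replicate set *Gadd45b* was 0.10 and *Gadd45g* -0.0549 at 0.5 h in *Map3k8*[D270A], and in the second *Gadd45g* was 0.0618 at 2 h. With WT replicates 7 to 9 alone, *Gadd45g* was -0.0481 at 0.5 h of LPS in WT, and *Gadd45b* was -0.0524 and *Gadd45g* 0.0258 at 0.5 h in *Elk1*-/-*Elk4*-/-. With WT replicates 4 to 6 alone, *Gadd45b* was 0.0323 with PD0325901 and *Gadd45g* -0.0658 with RSKi47, both at 0.5 h. Against WT replicates 7 to 9 alone, *Gadd45g* with RSKi47 at 0.5 h was 0.49 and called (adjusted p = 3.22e-04). The cause was not tested.

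Leaving out 1 replicate at a time gave counts of 11 to 12 for LPS in WT, 8 to 10 between times, 3 to 5 in *Map3k8*[D270A], 10 to 13 in *Elk1*-/-*Elk4*-/-, 7 to 8 in *Nfkb1*[SS/AA], 8 to 9 with PD0325901 and LPS, 5 to 7 with PD0325901 alone, 2 to 3 for DMSO, 10 to 11 with RSKi47, 56 to 59 for LPS in the other arms, and 15 to 18 for differences between LPS changes. Outside WT and *Nfkb1*[SS/AA], libraries that share a replicate number are not shown to be paired by the minimum of 0.1 in every pair (lowest correlations 0.072 within *Map3k8*[D270A] and 0.071 within RSKi47, where all pairs were positive, -0.217 within *Elk1*-/-*Elk4*-/-, -0.267 within PD0325901, and -0.449 to -0.057 between WT and *Map3k8*[D270A]), and the block across arms is only an alternative. With it *Gadd45a* at 1 h (-0.40), *Gadd45b* at 2 h (-0.22), and *Plk2* at rest (0.21) and 1 h (0.20) became called in *Map3k8*[D270A], and *Gadd45b* at 0.5 h (-0.19) with PD0325901. No such fit was made for RSKi47 against WT, which share 1 replicate number. A block within each arm gave 62 calls for LPS in the other arms against 58, with *Gadd45g* (0.35) and *Plk3* (0.32) with RSKi47, *Gadd45a* in *Elk1*-/-*Elk4*-/- (0.38), and *Gadd45g* with PD0325901 (0.30) gained, all at 0.5 h. The same block gave 19 calls for differences between LPS changes against 18. The gained call was *Plk2* in *Map3k8*[D270A] at 2 h (-0.21, adjusted p = 0.0485). No source used here gives each library's depth, so no limit of detection is given.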
